A study of Mus musculus with 4 samples.

Results

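A set of 40 genes of the Wnt pathway was followed in RNA-seq counts from pooled mouse neural tubes at E12.5 (mid-gestation). They were taken from a list of names, drawn up with earlier results of these data known, and made up 40 of the 24971 genes in the files. The list held 12 Wnt ligands, 12 receptors (10 Frizzled genes with Lrp5 and Lrp6), 7 secreted inhibitors, 3 R-spondins and 6 target genes of the canonical branch. There were 4 libraries, 2 labelled Lbx1Δ/Δ and 2 labelled WT, all on the C57BL/6 background, and the labels name no agent, transgene or Cre. Each library came from several tubes of a single genotype within a litter, so the spread between libraries is that between pools. The deletion carried by the Lbx1Δ/Δ embryos is not described further in the labels. Total counts were 17250143 and 16853984 in libraries 1 and 2 labelled Lbx1Δ/Δ, and 20579803 and 16948717 in WT libraries 1 and 2. Levels are in CPM, the usual scaling of counts to the library total. Where a gene had no count, its level could still reach 0.146 to 0.178 CPM, that of 3 counts, a limit that covers counting error only.

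Wnt proteins are secreted lipid-modified ligands that bind Frizzled receptors. In the canonical branch they also engage the co-receptors Lrp5 and Lrp6, which stabilises β-catenin and lets it activate target genes with TCF/LEF factors. In the spinal cord, Wnt1 and Wnt3a from the roof plate promote growth of the dorsal progenitors. Other ligands act on cell polarity and axon guidance. Secreted inhibitors of the Sfrp, Dkk and Wif families limit the signal, and R-spondins strengthen it by sparing the receptors from degradation.

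Lbx1, a homeodomain factor of dorsal interneurons and the gene named in the genotype label, was at 113 and 387 CPM in libraries 1 and 2 labelled Lbx1Δ/Δ, against 39.8 and 81.4 CPM in WT libraries 1 and 2. The fitted log2 difference was 2.02 (SE 0.68, edgeR adjusted p = 0.9998), and 0.90 without library 2 labelled Lbx1Δ/Δ. With the replicate number added as a block, which the labels do not give as a pairing, Lbx1 was called higher (log2 1.88, SE 0.13, edgeR adjusted p = 1.187e-06). The counts of the named gene did not fall under the Lbx1Δ/Δ label. They cannot check the label, because the extent of the deletion is not described and counts may come from outside it. Every direction here is therefore between libraries as labelled. The neural label was matched by Sox2, a neural progenitor factor, at 265 and 300.2 CPM in the libraries labelled Lbx1Δ/Δ and at 255 and 298 CPM in WT, while Pax6, another progenitor factor, has several RefSeq accessions and was listed at 0 in every library. The libraries stood apart by replicate number more than by genotype label. Of the 10757 genes tested, 25.5% were called between number 2 and number 1, and 0% between the genotype labels (edgeR's quasi-likelihood test, Benjamini-Hochberg adjusted p under 0.05). In the fit by number alone each arm holds both labels, and in the fit by genotype label alone each arm holds both numbers. The p-values therefore measure only the spread between these pools, with the difference by the other factor counted in that spread. The numbers name pools and no treatment, and the labels do not say that libraries of the same number share a litter. Markers of neurons summed to 12921.8 and 11428.8 CPM in number 2 (labelled Lbx1Δ/Δ and WT) and to 7074.5 and 6442.2 CPM in number 1.

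The number of RefSeq accessions listed for a gene went with whether it was measured. All 29 Wnt genes with a single accession passed the filter on low counts, with totals over the 4 libraries of 83 to 37482. Of the 11 genes with several accessions, 3 passed (Wnt5a, Wnt7b and Nkd1), and the other 8 had totals of 0 to 6 counts. Those 8 were Wnt5b, Wnt7a, Wnt11, Fzd5, Fzd6, Dkk3, Rspo2 and Lef1. Dkk3, Rspo2, Lef1 and Fzd5 were listed at 0 in every library. Ctnnb1, the gene of β-catenin that all cells express, has 2 accessions and was listed with 1 and 1 counts in the libraries labelled Lbx1Δ/Δ and with 1 and 0 in WT. Totals below 10 counts were found for 61.3% of all genes with several accessions and for 41.3% of those with a single one. The 8 genes therefore have no usable value, and those of Wnt5a, Wnt7b and Nkd1 may cover only part of their transcripts.

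**Figure D1:**
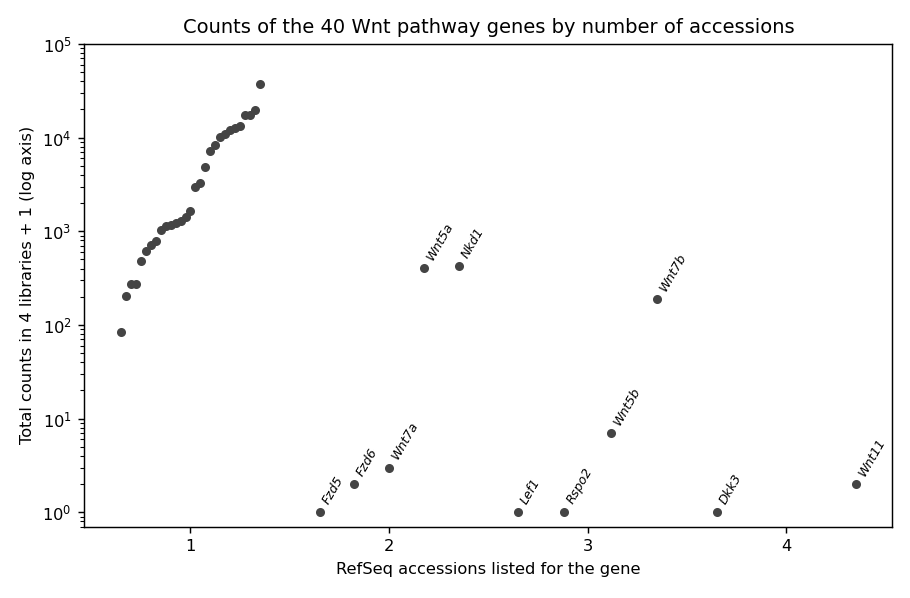
Total counts over the 4 libraries plus 1 (log axis) of the 40 Wnt pathway genes against the number of RefSeq accessions listed for each, with 1 point per gene and points spread sideways by rank. The 29 genes with a single accession lie at 83 counts or above, and 8 of the 11 with several lie at 6 counts or below.

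Promoter sequences are shown for Axin2 and Sp5, a target with nearly level counts in all libraries and the target with the highest fitted value under the Lbx1Δ/Δ label, and for Dkk1 and Rspo1, which were among the members furthest apart between the replicate numbers. They are the 250 bases before the RefSeq start in GRCm38.p6, a later build than the mm9 used for the counts, written 5′ to 3′ on the gene's strand. Capitals mark the TCF/LEF core letters CTTTGA or CTTTGT on either strand, and these matches are a description of letters only. RefSeq gave 32 promoters for 26 of the 40 genes. The letters occurred in 10 of these 32 promoters (31.2%), and in 27.6% of all 32851 promoters of this length. Sp5 (chr2:70474673-70474922, plus strand) held 4 matches, Dkk1 (chr19:30549497-30549746, minus strand) held 3, and Axin2 (chr11:108920099-108920348, plus strand) and Rspo1 (chr4:124986180-124986429, plus strand) held 0.
Axin2: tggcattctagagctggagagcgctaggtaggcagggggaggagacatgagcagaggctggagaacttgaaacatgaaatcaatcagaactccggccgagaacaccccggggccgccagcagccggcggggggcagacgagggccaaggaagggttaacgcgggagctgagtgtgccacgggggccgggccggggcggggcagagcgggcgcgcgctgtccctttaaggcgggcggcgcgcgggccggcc
Sp5: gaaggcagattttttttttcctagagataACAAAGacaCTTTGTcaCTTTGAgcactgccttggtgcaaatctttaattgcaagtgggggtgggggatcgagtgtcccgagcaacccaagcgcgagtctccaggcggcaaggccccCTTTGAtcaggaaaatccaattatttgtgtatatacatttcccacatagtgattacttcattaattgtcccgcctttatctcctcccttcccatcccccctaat
Dkk1: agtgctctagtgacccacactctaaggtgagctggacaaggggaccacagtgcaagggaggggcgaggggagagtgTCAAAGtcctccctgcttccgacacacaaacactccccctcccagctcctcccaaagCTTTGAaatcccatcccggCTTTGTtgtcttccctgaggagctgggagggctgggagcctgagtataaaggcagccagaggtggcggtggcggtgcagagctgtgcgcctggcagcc
Rspo1: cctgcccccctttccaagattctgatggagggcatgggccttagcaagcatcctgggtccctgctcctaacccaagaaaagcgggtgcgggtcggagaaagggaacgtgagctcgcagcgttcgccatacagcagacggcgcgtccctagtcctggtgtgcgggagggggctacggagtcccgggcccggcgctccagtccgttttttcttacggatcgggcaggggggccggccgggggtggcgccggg

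Between the genotype labels, none of the 32 tested members passed the test. With the genotype label as the only term, edgeR called 0 members and 0 of all genes, and 0 members had an unadjusted p below 0.05, against 55 of all genes (0.511%). DESeq2 and limma-voom also called 0 members, with 0 at an unadjusted p below 0.05 in each. With the replicate number as a block, edgeR called 1 member (Dkk2, lower), beside 0.27% of all genes called higher and 0.586% called lower. In that blocked fit 11 of the 32 members had an unadjusted p below 0.05, beside 12.6% of all genes. The fitted log2 differences, libraries labelled Lbx1Δ/Δ minus WT, ran from −0.68 to 0.87, with 13 higher and 19 lower and a median of −0.10, beside −0.0026 over all genes tested. The libraries of the labels did not overlap for 4 members. Wnt7b and Sp5 were higher in both libraries labelled Lbx1Δ/Δ, beside 11.3% of all genes, and Wnt6 and Sfrp2 were lower in both, beside 9.31%.

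Between the replicate numbers, 12 members fell and 0 rose in number 2 relative to number 1 (edgeR's quasi-likelihood test on number alone, adjusted p under 0.05). Over all genes tested, 12.2% fell and 13.3% rose. The members that fell were 7 receptors, 3 inhibitors and both tested R-spondins, while no ligand and no target passed. The median log2 difference, number 2 minus number 1, was −0.36 over the 32 members, beside 0.00021 over all genes. Number 2 lay below number 1 in both labels without overlap for 19 members, beside 31.9% of all genes, and above it for 2, beside 34.1%. With library 1 labelled Lbx1Δ/Δ left out, 0 members and 6 genes in all were called, and with WT library 1 left out, 0 members and 1 gene. Such fits leave 1 library in an arm, which is assumed to vary like the other arm. The medians without library 1 labelled Lbx1Δ/Δ were −0.60 for receptors, −0.78 for inhibitors and −1.68 for R-spondins, and those without WT library 1 were −0.45, −0.54 and −1.45. With the genotype label added to the fit, edgeR called 17 members, beside 35.6% of all genes. Fits without library 2 of either label still called members, but they also leave 1 library in an arm. Their calls are not set beside those over all genes here.

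**Figure D2:**
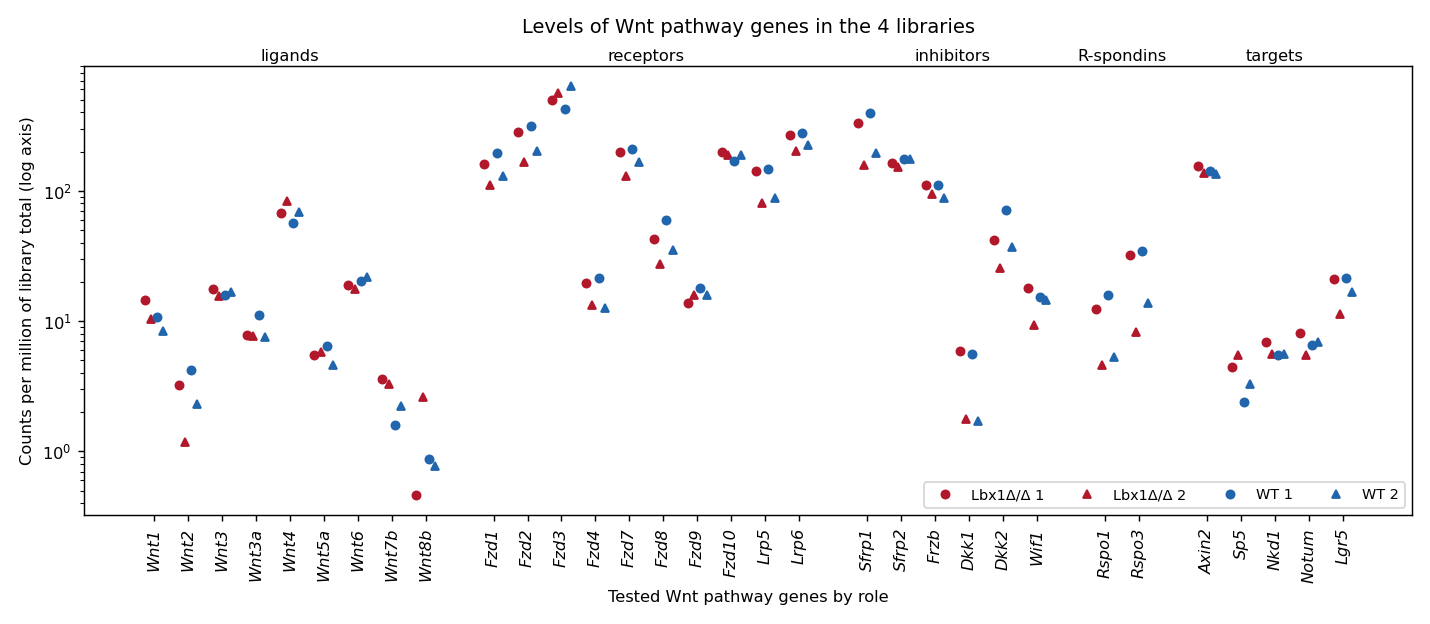
Level of each of the 32 tested members in CPM of the library total (log axis), grouped by role, with 1 point per library, red for the libraries labelled Lbx1Δ/Δ, blue for WT, circles for number 1 and triangles for number 2. Rspo1, Rspo3, Sfrp1 and Dkk1 separate by symbol shape, with both triangles below both circles.

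No ligand passed the test by genotype label or by number alone. With the genotype label added to the fit by number, Wnt4 was called higher (log2 0.28, SE 0.11, edgeR adjusted p = 0.0496) and Wnt2 lower (log2 −1.14, SE 0.37, edgeR adjusted p = 0.0248). Fitted values of the 9 tested were higher under the Lbx1Δ/Δ label for 6 and lower for 3. The median of their log2 differences was 0.016 between the labels and −0.061 between numbers. Per kilobase of GENCODE transcript, and among the single-accession ligands, Wnt4 was highest at 13.5 to 20.05 CPM per kilobase over the 4 libraries. Wnt6 followed at 8.51 to 10.5 CPM per kilobase. Wnt3, at 5.07 to 5.73, and Wnt1, at 3.52 to 6.09, overlapped in their ranges, as did Wnt1 and Wnt3a, at 2.71 to 4.01 CPM per kilobase. Wnt2, at 0.526 to 1.85, and Wnt8b, at 0.137 to 0.773 CPM per kilobase, were lowest.

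Wnt1, a roof plate ligand, was at 14.5 and 10.3 CPM in libraries 1 and 2 labelled Lbx1Δ/Δ, against 10.8 and 8.38 CPM in WT libraries 1 and 2. It was higher in the libraries labelled Lbx1Δ/Δ within each number, but the labels overlapped. Wnt3a, the other roof plate ligand, was at 7.88 and 7.65 CPM in the libraries labelled Lbx1Δ/Δ and at 11.1 and 7.49 CPM in WT. Only WT library 1 stood above the rest. Both ligands were lower in number 2 than in number 1 without overlap, beside 31.9% of all genes, and neither passed the test by number. The roof plate markers had a median log2 difference of −0.10 between the labels, with 3 of 6 tested higher, and their part in these values was not tested. In pooled tissue, fewer cells of a type and less RNA per cell cannot be told apart.

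Wnt4, a ligand of many embryonic epithelia, was at 67.0 and 84.1 CPM in libraries 1 and 2 labelled Lbx1Δ/Δ and at 56.7 and 68.3 CPM in WT libraries 1 and 2. Within each number it was higher under the Lbx1Δ/Δ label, and the fitted log2 difference was 0.26 (SE 0.20, edgeR adjusted p = 0.9998). Wnt7b, a ligand that neural progenitors signal with to brain and cord vessels, had 62 and 55 counts in the libraries labelled Lbx1Δ/Δ, against 33 and 38 counts in WT. Both libraries labelled Lbx1Δ/Δ were above both WT libraries. The log2 difference was 0.82 (SE 0.39, edgeR unadjusted p = 0.0912, adjusted p = 0.9998), and the value is uncertain because Wnt7b has 3 accessions. All 3 had reads, and the most abundant gave 38 and 32 of the counts in the libraries labelled Lbx1Δ/Δ and 20 and 25 in WT.

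Wnt6, a ligand of surface ectoderm, was at 18.8 and 17.6 CPM in the libraries labelled Lbx1Δ/Δ, below 20.4 and 21.8 CPM in WT. Surface ectoderm markers summed to 116 and 60.7 CPM in the libraries labelled Lbx1Δ/Δ and to 151 and 96.3 CPM in WT, with 6 of 6 tested markers lower by fitted value. Between numbers these markers had a median log2 difference of −1.02, with 6 of 6 tested lower, while the Wnt6 levels overlapped. The part of the markers in the Wnt6 values was not tested. Wnt3 was at 17.6 and 15.6 CPM in the libraries labelled Lbx1Δ/Δ and at 15.8 and 16.8 CPM in WT, and Wnt5a, a ligand of the non-canonical branch, was at 5.51 and 5.76 CPM in the libraries labelled Lbx1Δ/Δ and at 6.41 and 4.602 CPM in WT. Neither separated by label or number.

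Wnt2, a ligand of mesenchyme, was the ligand with the smallest p between numbers. It had 20 and 39 counts in number 2 (labelled Lbx1Δ/Δ and WT) and 56 and 86 counts in number 1, a log2 difference of −1.11 (SE 0.41, edgeR adjusted p = 0.0721). Both number 2 libraries were below both number 1 libraries, and the test was passed only with the genotype label in the fit. Wnt8b, a ligand of the embryonic forebrain, had 44 and 13 counts in number 2 and 8 and 18 counts in number 1, a log2 difference of 1.28 (SE 0.63, edgeR adjusted p = 0.168). That difference was 0.18 without library 2 labelled Lbx1Δ/Δ, the library with 44 counts.

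The receptors had lower fitted values in number 2 for 8 of 10 tested genes, and 7 of these passed the test. Their median log2 difference was −0.53 between numbers, −0.55 within the Lbx1Δ/Δ label and −0.46 within WT. Lrp5, a co-receptor of the canonical branch, was at 80.2 and 88.4 CPM in number 2 (labelled Lbx1Δ/Δ and WT), against 142 and 147 CPM in number 1. The libraries fell into separate ranges, with a log2 difference of −0.80 (SE 0.10, edgeR adjusted p = 0.000926). Lrp6, its close relative, was at 201 and 226 CPM in number 2 and at 269 and 278 CPM in number 1 (log2 −0.38, SE 0.10, edgeR adjusted p = 0.0259).

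Among the Frizzled genes, Fzd2 was at 168 and 203 CPM in number 2 and at 284 and 313 CPM in number 1. Its log2 difference was −0.71 (SE 0.12, edgeR adjusted p = 0.00301). Fzd1, at 111 and 129 CPM in number 2 against 160.2 and 195 CPM in number 1, and Fzd7, at 131 and 168 CPM against 200.2 and 209 CPM, belong to the same Frizzled subfamily as Fzd2. All of these fell without overlap, with log2 differences of −0.59 (SE 0.13, edgeR adjusted p = 0.0087) for Fzd1 and −0.47 (SE 0.13, edgeR adjusted p = 0.0237) for Fzd7. Fzd8 was at 27.65 and 34.9 CPM in number 2 and at 42.3 and 59.3 CPM in number 1 (log2 −0.72, SE 0.20, edgeR adjusted p = 0.02445). Fzd4, a receptor known for its role in blood vessels, was at 13.2 and 12.51 CPM in number 2 and at 19.5 and 21.3 CPM in number 1 (log2 −0.69, SE 0.17, edgeR adjusted p = 0.0179). Without library 1 of either label none of these 7 passed, and their log2 differences were then −0.94 to −0.36. Lrp6 also did not pass without library 2 labelled Lbx1Δ/Δ (log2 −0.28).

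The test called no fall for Fzd3, Fzd9 and Fzd10. Fzd3, a receptor needed for axon tract formation, had the highest CPM of all members, without correction for its long transcript. Per kilobase of GENCODE transcript its mean over all libraries was 41.5 CPM, below Sfrp2 at 83.2 and Fzd2 at 66.0. Fzd3 was at 559 and 636 CPM in number 2, against 495 and 425 CPM in number 1, a log2 difference of 0.36 (SE 0.12, edgeR adjusted p = 0.0523). Number 2 was above number 1 without overlap, and the value passed the test in 7 of the other 9 fits that kept all libraries. Fzd10, a receptor of the dorsal neural tube, was at 187.5 and 189 CPM in number 2 and at 198 and 168 CPM in number 1. Fzd9 was at 16.0 and 15.9 CPM in number 2 and at 13.9 and 17.8 CPM in number 1, and neither gene separated by number.

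By genotype label, the fit put 9 of the 10 receptors lower (median log2 −0.15), and 6 were lower within both numbers. The receptors with the smallest p were Fzd8, at 42.3 and 27.65 CPM in libraries 1 and 2 labelled Lbx1Δ/Δ and at 59.3 and 34.9 CPM in WT, and Fzd1, at 160.2 and 111 CPM under the Lbx1Δ/Δ label and at 195 and 129 CPM in WT. The log2 differences were −0.44 (SE 0.37) for Fzd8 and −0.27 (SE 0.30) for Fzd1, with an edgeR adjusted p of 0.9998 for both. They were 0.015 and 0.082 without WT library 1, and the median of the receptors then turned to 0.050. It was 0.089 without library 2 labelled Lbx1Δ/Δ. Those fits leave only 1 number in an arm, so label and number are mixed in them. Within numbers 1 and 2, the log2 differences by label were −0.49 and −0.33 for Fzd8 and −0.28 and −0.22 for Fzd1. The median of the receptors was −0.093 within number 1 and −0.18 within number 2.

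**Figure D3:**
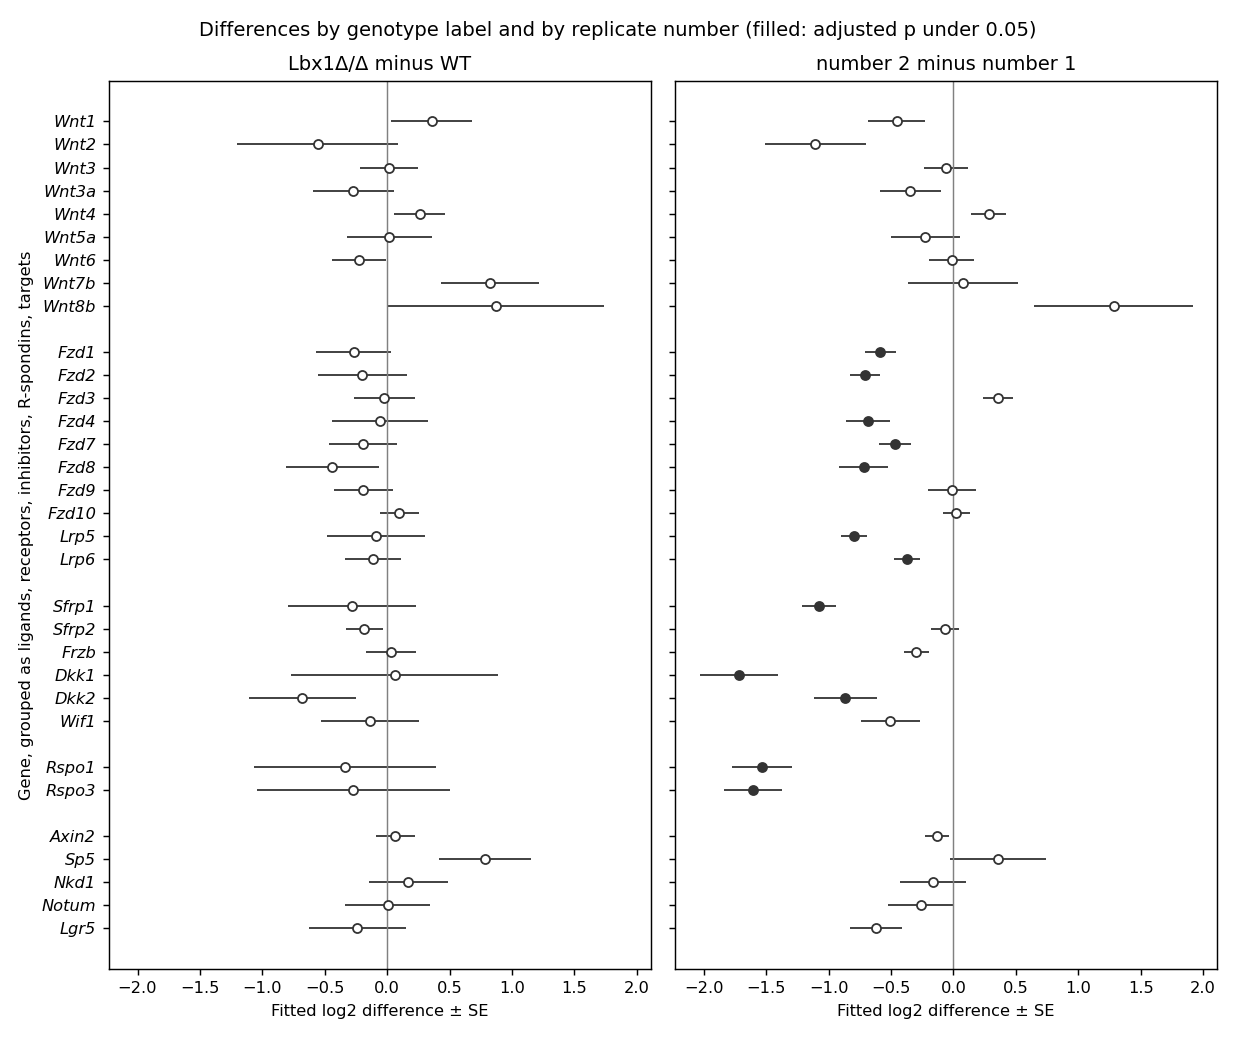
Fitted log2 differences with their SE for the 32 tested members, libraries labelled Lbx1Δ/Δ minus WT at left and number 2 minus number 1 at right, on the same axis, with filled points for an adjusted p under 0.05. There are 0 filled points at left and 12 at right, all of them below 0.

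The secreted inhibitors were lower in number 2 for all 6 tested genes by fitted value, and 3 passed the test. Sfrp1, a soluble Frizzled-like protein that binds Wnts, was at 157 and 194 CPM in number 2 (labelled Lbx1Δ/Δ and WT), against 334 and 397 CPM in number 1. The log2 difference was −1.08 (SE 0.13, edgeR adjusted p = 0.00076), and it was −1.09 within the Lbx1Δ/Δ label and −1.04 within WT. Dkk1, which blocks Lrp5 and Lrp6, had 30 and 29 counts in number 2 and 101 and 114 counts in number 1 (log2 −1.72, SE 0.31, edgeR adjusted p = 0.00393). This was the largest fall among the members, and the libraries of the same number differed by at most 0.081 on the log2 scale. Dkk2, a relative of Dkk1, was at 25.6 and 37.2 CPM in number 2 and at 42.3 and 70.6 CPM in number 1 (log2 −0.87, SE 0.25, edgeR adjusted p = 0.0316).

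Sfrp2, a close relative of Sfrp1, was not called. It was at 151 and 176.5 CPM in number 2 and at 163 and 176.7 CPM in number 1, and its highest level was 1.17 times its lowest. Frzb, also a soluble Frizzled-like protein, was at 94.5 and 87.3 CPM in number 2 and at 109.9 and 111 CPM in number 1 (log2 −0.30, SE 0.10, edgeR adjusted p = 0.0546), and was called with the genotype label in the fit (edgeR adjusted p = 0.0143). Wif1, which binds Wnts directly, was at 9.32 and 14.5 CPM in number 2 and at 18.03 and 15.4 CPM in number 1. Number 2 was below number 1 without overlap, with library 2 labelled Lbx1Δ/Δ lowest, and the test was not passed.

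By genotype label, Dkk2 was the inhibitor with the smallest p. It was at 42.3 and 25.6 CPM in libraries 1 and 2 labelled Lbx1Δ/Δ and at 70.6 and 37.2 CPM in WT libraries 1 and 2. It was lower under the Lbx1Δ/Δ label within each number, with log2 differences of −0.74 and −0.54, while the labels overlapped. The fitted log2 difference was −0.68 (SE 0.43, edgeR unadjusted p = 0.176, adjusted p = 0.9998), and it was −0.12 without WT library 1 and −0.35 without library 2 labelled Lbx1Δ/Δ. Sfrp2 was at 163 and 151 CPM in the libraries labelled Lbx1Δ/Δ, below 176.7 and 176.5 CPM in WT (log2 −0.18, SE 0.15, edgeR adjusted p = 0.9998). The median of the 6 inhibitors was −0.16, and it turned to 0.084 without WT library 1 and to 0.16 without library 2 labelled Lbx1Δ/Δ. Fits without a library leave only 1 number in an arm, so label and number are mixed in them. The median of the inhibitors was −0.066 within number 1 and −0.27 within number 2.

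Both tested R-spondins fell in number 2. Rspo3 was at 8.31 and 13.8 CPM in number 2 (labelled Lbx1Δ/Δ and WT), against 31.9 and 34.55 CPM in number 1, a log2 difference of −1.60 (SE 0.23, edgeR adjusted p = 0.001445). Rspo1 was at 4.57 and 5.31 CPM in number 2 and at 12.35 and 15.9 CPM in number 1 (log2 −1.53, SE 0.24, edgeR adjusted p = 0.00193). No library of number 2 reached the level of any library of number 1 for either gene. By genotype label the fitted log2 differences were −0.34 (SE 0.73) for Rspo1 and −0.27 (SE 0.77) for Rspo3, with an edgeR adjusted p of 0.9998 for both. These turned to 0.69 and 0.56 without WT library 1, and to 0.21 and 0.40 without library 2 labelled Lbx1Δ/Δ. Those fits leave only number 2 in the WT arm or only number 1 in the Lbx1Δ/Δ arm. Label and number are therefore mixed in them. Within numbers 1 and 2, the log2 differences by label were −0.36 and −0.22 for Rspo1 and −0.11 and −0.73 for Rspo3.

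The target genes had no call by genotype label or by number alone. Axin2, a scaffold of the complex that degrades β-catenin and a feedback target in many tissues, was at 154 and 138 CPM in libraries 1 and 2 labelled Lbx1Δ/Δ and at 141 and 135 CPM in WT libraries 1 and 2. Its highest level was 1.14 times its lowest. The log2 difference between numbers was −0.13 (SE 0.098, edgeR adjusted p = 0.353). Number 2 was below number 1 without overlap; the test was not passed.

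Sp5, a zinc-finger factor that canonical Wnt signals induce, had 76 and 92 counts in libraries 1 and 2 labelled Lbx1Δ/Δ, against 49 and 56 counts in WT libraries 1 and 2. Both libraries labelled Lbx1Δ/Δ were above both WT libraries. The fitted log2 difference was 0.78 (SE 0.37, edgeR unadjusted p = 0.0915, adjusted p = 0.9998), and 0.88 within number 1 and 0.72 within number 2. Lgr5, which is both a target gene and a receptor of R-spondins, was at 11.3 and 16.6 CPM in number 2 (labelled Lbx1Δ/Δ and WT) and at 21.1 and 21.4 CPM in number 1. This log2 difference of −0.62 (SE 0.21, edgeR adjusted p = 0.0563) did not pass, and it did with the genotype label in the fit (log2 −0.64, SE 0.18, edgeR adjusted p = 0.00971). By genotype label Lgr5 had a log2 difference of −0.24 (SE 0.39, edgeR adjusted p = 0.9998), which was 0.15 without library 2 labelled Lbx1Δ/Δ. That fit leaves only number 1 under the Lbx1Δ/Δ label, so label and number are mixed in it. Within numbers 1 and 2, the log2 differences of Lgr5 by label were −0.022 and −0.55. Nkd1, an inhibitor acting on Dishevelled, had 120 and 94 counts in the libraries labelled Lbx1Δ/Δ and 112 and 95 counts in WT. Notum, an enzyme that removes the lipid from Wnts, had 140 and 93 counts in the libraries labelled Lbx1Δ/Δ and 136 and 117 counts in WT, and overlapped by label and by number.

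**Figure D4:**
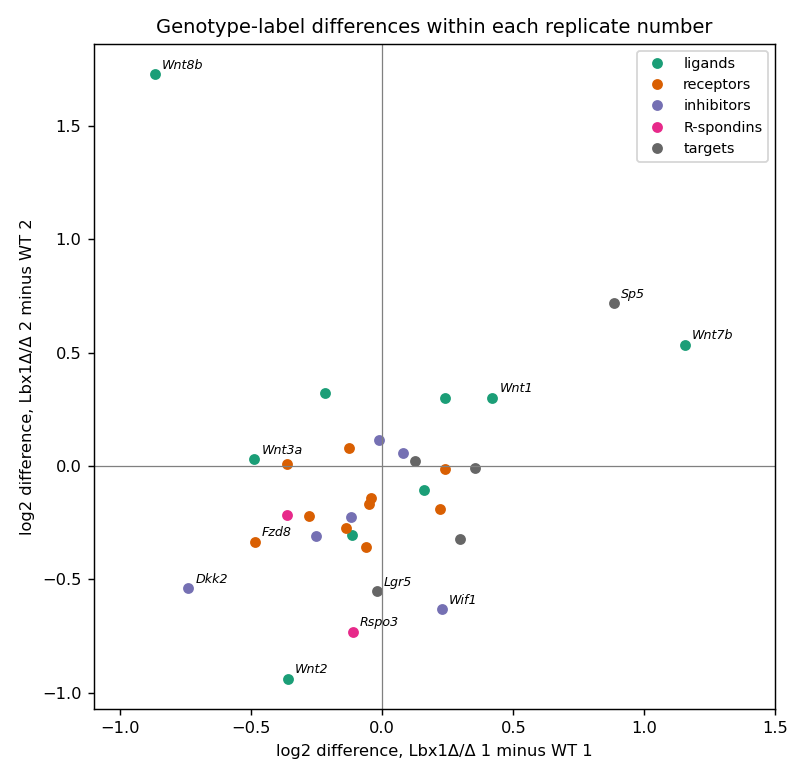
Log2 difference between the library labelled Lbx1Δ/Δ and the WT library of the same number, for number 2 against number 1, with 1 point per tested member coloured by role (0.5 counts added). Sp5 and Wnt7b lie above 0.5 on both axes, Dkk2 below −0.5 on both, and Wnt8b at −0.87 for number 1 and 1.73 for number 2.

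Within the separate replicate numbers, 6 of the 32 tested members were higher under the Lbx1Δ/Δ label in both and 14 were lower in both, beside 30.3% and 28.9% of all genes. On the log2 scale, the members had a median of −0.055 within number 1 and −0.15 within number 2. Wnt8b differed most between numbers, at −0.87 for number 1 and 1.73 for number 2, where library 2 labelled Lbx1Δ/Δ had 44 counts.

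Of 72 other genes of the pathway, 49 were tested. By genotype label 0 passed in edgeR's quasi-likelihood test, with 2 at an unadjusted p below 0.05. These were Dvl1, a cytoplasmic relay of the signal, with 16 and 14 counts in the libraries labelled Lbx1Δ/Δ against 2 and 3 in WT (log2 2.63, SE 0.63, edgeR adjusted p = 0.9998), and Rspo4, with 28 and 19 counts against 12 and 7 (log2 1.43, SE 0.52, edgeR adjusted p = 0.9998). Dvl1 has 2 accessions and its value is uncertain. The third smallest p belonged to Wnt10b, with 41 and 20 counts in the libraries labelled Lbx1Δ/Δ and 82 and 53 in WT (log2 −1.004, SE 0.50, edgeR adjusted p = 0.9998). Of the 23 genes not tested, 21 have several accessions, Gsk3b, Tcf7l1, Tcf7l2 and Myc among them.

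Between numbers, 12 of these 49 fell and 4 rose in number 2, beside 12.2% and 13.3% of all genes. The 4 that rose were the secreted inhibitors Sfrp5 and Draxin, the membrane-bound inhibitor Apcdd1, and Apc2, a relative of the tumour suppressor Apc found in neurons. Sfrp5 had 316 and 189 counts in number 2 (labelled Lbx1Δ/Δ and WT) and 50 and 45 counts in number 1 (log2 2.54, SE 0.31, edgeR adjusted p = 0.00072). Apc2 had a log2 difference of 1.23 (SE 0.17, edgeR adjusted p = 0.001055), Draxin, which also guides axons, one of 0.80 (SE 0.13, edgeR adjusted p = 0.00198), and Apcdd1 one of 0.61 (SE 0.11, edgeR adjusted p = 0.00348). Those that fell included the receptor kinases Ror1 and Ror2, with log2 differences of −1.44 and −1.09, and their relative Ptk7, with −0.44. The others were the ligands Wnt2b (−1.04), Wnt9b (−1.26) and Wnt16 (−2.03), the inhibitors Sost (−2.19) and Sostdc1 (−0.99), the Dkk co-receptor Kremen2 (−1.47), Dvl2 (−0.37) and the cyclins Ccnd1 (−0.45) and Ccnd2 (−1.15). The edgeR adjusted p of these 12 lay between 0.000765 for Ccnd2 and 0.0303 for Wnt9b. Without library 1 of either label none of the 16 passed. Their log2 differences were then 0.52 to 2.76 for the 4 that rose and −2.26 to −0.33 for the 12 that fell. Wnt9b also did not pass without library 2 labelled Lbx1Δ/Δ (log2 −1.14).

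Most tested markers of tissue around the tube had lower fitted values in number 2. Mesenchyme markers had a median log2 difference of −0.95 between numbers, with 10 of 11 tested lower, 6 of them called. The mesenchyme markers summed to 4335.4 and 4896.7 CPM in number 2 (labelled Lbx1Δ/Δ and WT) and to 4677.2 and 6565.6 CPM in number 1. These sums overlapped, and Col1a1, Col1a2 and Col3a1, the most abundant of the list, were not called. Of the 12, Postn had only 2 to 4 counts a library. Muscle markers had a median of −1.43 (9 of 9 tested lower, 6 called) and summed to 143 and 447 CPM in number 2 and to 798 and 932 CPM in number 1, with Tnnt1 at 0. Surface ectoderm markers had a median of −1.02, with 6 of 6 tested lower and 3 called, and Krt14 and Trp63 at or near 0. Neuron markers rose, with a median of 0.86 and 7 of 7 tested called higher. Neural progenitor markers had a median of 0.18, with 1 called higher and 1 called lower. Their part in the falls of Frizzled, Sfrp, Dkk and R-spondin genes was not tested.

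The remaining lists gave medians between numbers of −0.36 for roof plate (6 tested, 3 called lower), 0.24 for dorsal progenitors (7 tested, 1 called lower) and 0.076 for ventral genes (6 tested, 1 called higher). Forebrain and midbrain genes had −0.42 (5 tested, 2 called lower), meninges and endothelium −0.062 (5 tested, 2 called higher and 1 lower), and posterior Hox genes 1.31 (10 tested, 4 called higher). By genotype label alone none of the marker lists had a called gene. With the replicate number as a block, edgeR called the neuron marker Map2 higher (log2 0.51, adjusted p = 0.0177). It called lower Lum of mesenchyme (−0.44, adjusted p = 0.0275), Myh3 of muscle (−0.94, adjusted p = 0.047), Krt5 of surface ectoderm (−0.64, adjusted p = 0.042) and Foxc1 of the meninges (−0.53, adjusted p = 0.0137). The medians by genotype label alone were −0.37 for mesenchyme, −0.55 for muscle, −0.47 for surface ectoderm, 0.11 for neurons, 0.21 for neural progenitors and 0.32 for dorsal progenitors. They were 0.24 for ventral genes, −0.27 for forebrain and midbrain, −0.10 for meninges and endothelium and 0.23 for posterior Hox genes. The Hox median was 3.15 within number 1 and −0.42 within number 2, and WT library 1 stood apart: Hoxc12 had 61 and 156 counts in libraries 1 and 2 labelled Lbx1Δ/Δ and 0 and 183 counts in WT.

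**Figure D5:**
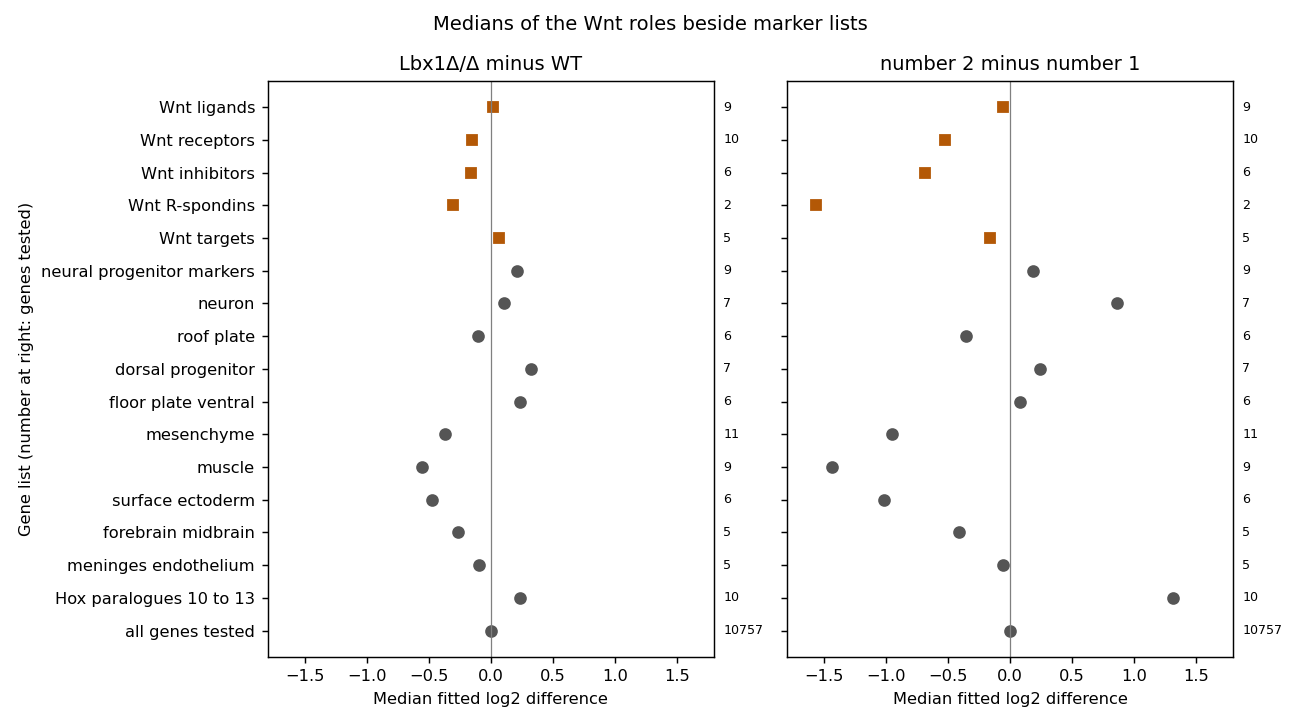
Median fitted log2 difference of the 5 Wnt roles (squares) and of the marker lists and all genes tested (circles), libraries labelled Lbx1Δ/Δ minus WT at left and number 2 minus number 1 at right, with the number of genes tested at the right edge. Between numbers all 5 Wnt roles lie below 0. So do mesenchyme, muscle, surface ectoderm, roof plate, forebrain and midbrain, and meninges and endothelium, while the neuron markers lie at 0.86.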

How the data were processed

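The deposited files give raw read counts per RefSeq accession, with alignment by TopHat2 2.1.1 to mm9 and counting by featureCounts 4.6.0.1, per the submitters' processing notes, which also name edgeR 3.4.3. How reads shared by several accessions of a gene were counted is not given in the sources used here. Counts were summed per gene symbol (RefSeq and GENCODE tables); accessions without a symbol held 0.325 to 0.649% of a library and were kept as genes of their own. Genes were filtered with filterByExpr (minimum count 10, minimum total 15), scaled by TMM and tested with edgeR 4.0.16 in R 4.3.3 on genotype label alone and on replicate number alone, with Benjamini-Hochberg adjustment over 10757 genes. DESeq2 1.42.0, limma-voom 3.58.1, other scalings and filters, the largest accession only, a replicate block and leaving out each library were alternatives. SE is the size of the log2 difference over the square root of F, and within-number differences add 0.5 counts. Fitted differences are given for members with an unadjusted p under 0.05 and for the 2 with the smallest p of each role, and for the 3 other pathway genes with the smallest p, any called, and Lbx1. The members and lists were chosen with earlier results of these data known. The steps were tested on simulated data with a single changed factor and a fixed spread. That test does not cover libraries that differ by genotype label and by number together.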

Additional observations from a re-analysis of the deposited data

How the results depend on the processing

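Leaving out a library left 0 genes and 0 members called between the genotype labels. Between numbers it gave 1 to 3917 genes (1 to 1878 higher, 0 to 2039 lower) and 0 to 17 members (0 to 2 higher, 0 to 15 lower). Genotype medians ranged from −0.45 to 0.089 (receptors), −0.81 to 0.16 (inhibitors) and −1.40 to 0.62 (R-spondins). Number medians ranged from −0.20 to −0.063 (ligands), −0.67 to −0.38 (receptors), −1.03 to −0.47 (inhibitors) and −1.85 to −1.34 (R-spondins). Single genotype differences that changed sign ranged from −0.78 to 0.015 (Fzd8), −0.56 to 0.082 (Fzd1), −1.23 to 0.69 (Rspo1), −1.56 to 0.56 (Rspo3) and −0.76 to 0.15 (Lgr5). Genotype fits without a library have no term for number and leave only 1 number in an arm. Label and number are therefore mixed in them. With the replicate number as a block and all libraries kept, the log2 differences were −0.43 (Fzd8), −0.26 (Fzd1), −0.31 (Rspo1), −0.40 (Rspo3) and −0.29 (Lgr5). The cause of the ranges was not tested.

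With the replicate number as a block, edgeR called 92 genes between the genotype labels (29 higher, 63 lower). These were 0.855% of all genes (0.27% higher, 0.586% lower). Among them was 1 member, Dkk2, called lower (log2 −0.66, SE 0.14, edgeR adjusted p = 0.032). In that fit 11 members had an unadjusted p below 0.05, beside 12.6% of all genes. Between numbers the block gave 17 members, 2 of them called higher (Fzd3 and Wnt4) and 15 lower (Wnt2, Frzb and Lgr5 beside the 12 called without it), beside 35.6% of all genes (17.8% in each direction). The labels do not pair the numbers, although deviations of same-numbered libraries correlated across 10757 genes (r = 0.657), which are not independent replicates. Between numbers 1 member, Fzd3, was called higher with upper-quartile scaling, library totals, no filter, the CPM filter, DESeq2 and limma-voom, and the ligand median was −0.13 with the CPM filter.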
